A study of Bos taurus with 6 samples.

Results

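The genes described here carry pyruvate into mitochondria, convert it to acetyl-CoA and run the citric acid cycle, together with the enzymes and carriers of the malate-aspartate shuttle. They were taken as a list of 31 gene symbols, and a gene counted as measured when the platform annotation named a probe set with that 1 symbol. Of the 31 genes, 27 were measured, by 46 probe sets, among 9155 genes measured in all on 24016 tested probe sets. PDK1, IDH3B, DLST and MDH1 were not analysed here. Where a gene had several probe sets, the one with the highest mean over the 6 arrays stands for it.

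The muscle was longissimus thoracis, a large back muscle, from castrated male cattle of the Japanese Black breed, a beef breed with strongly marbled meat. The vitamin A restricted group of 3 steers had its dietary vitamin A restricted, and the supplemented group of 3 steers received 296.8 IU of vitamin A per kg of body weight by mouth each week. All 6 steers were 13 to 14 months old at the start and 20 to 21 months old at the end of a fattening period of 7 months, in which feeding aimed at 1.0 kg of weight gain a day. At sampling the restricted steers were 598.3 ± 11.4 days old and the supplemented steers 610.0 ± 9.17 days old (SD, n = 3 each), with p = 0.2 in an exact two-sided permutation test whose smallest possible p is 0.1. Each array held RNA of a different steer. The comparison asks which muscle transcripts differ when dietary vitamin A is restricted during fattening.

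Pyruvate, the end product of glycolysis, enters mitochondria through a carrier made of MPC1 and MPC2. The pyruvate dehydrogenase complex then turns it into acetyl-CoA, a step that kinases switch off by phosphorylation and phosphatases switch on again, and citrate synthase joins acetyl-CoA to oxaloacetate to start the cycle. The cycle strips electrons from its intermediates for the respiratory chain, and the malate-aspartate shuttle brings in electrons from cytosolic NADH. In muscle these enzymes are abundant in oxidative fibres, which are rich in mitochondria.

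The deposited log2 values hardly differed from steer to steer: the range of a tested probe set over the arrays had a median of 0.677 millionths of a log2 unit, and no source used here gives the step behind this. Differences are therefore not read as fold changes. They are given restricted minus supplemented, in within-group standard deviations (SDs) of the same probe set, and single steers as deviations from the mean of the 6 arrays, in millionths of a deposited log2 unit. All 9 measured skeletal muscle markers, ACTA1, CKM and MB among them, had means above the upper quartile of all probe sets, and none of the 5 measured red blood cell markers did. Of the 27 pathway genes, 25 had probe sets above that quartile, and PDK3 alone lay below the median.

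In restricted steers 23 of the 27 genes had a higher mean value than in supplemented steers and 4 a lower one. After the arrays were shifted to the same median 18 were higher and 9 lower, where 10.8% of all genes were higher. This median shift lowers every difference by the same 2.22 millionths and so turned genes whose differences were small in millionths. After quantile normalization 1 was higher, 5 were lower and the other 21 equal, where 15.2% of all genes were higher. None passed the test: 0 of 27 had a limma adjusted p under 0.05, where 1 of all 9155 genes, or 0.0109%, did, namely DHRS3, an enzyme that reduces retinaldehyde. Each pathway gene had an adjusted p that rounds to 1. At an unadjusted limma p under 0.05 there were 5 genes, MPC2, IDH3G, SUCLG1, GOT2 and SLC25A11, all with higher values. These are 18.5% of the genes measured, against 4.62% of all genes at that threshold and 2.15% on the higher side. The median difference was 0.745 SDs, against -0.00788 SDs over all genes, of which 49.5% had a higher value. The pathway genes were read on the same 6 arrays and do not vary independently from steer to steer, so these counts are a description.

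**Figure D1:**
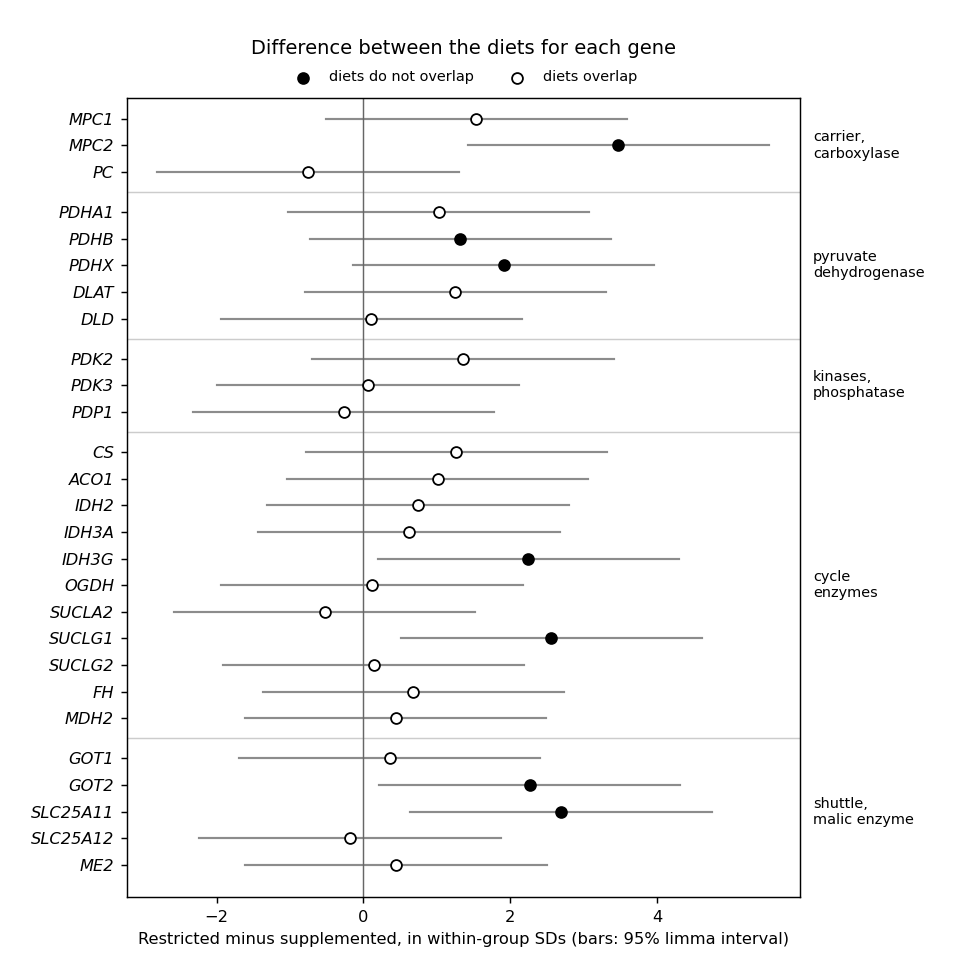
Difference between restricted and supplemented steers for each of the 27 genes (horizontal axis, within-group SDs; bars, 95% limma intervals; filled points, genes whose diets do not overlap). MPC2 lies farthest to the right at 3.47 SDs, 23 genes lie right of 0 in the values as deposited, and most bars cross 0.

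The mitochondrial pyruvate carrier held the gene with the largest difference. MPC2 (NCBI gene 616718, mean value 7.23), the carrier subunit that pairs with MPC1, deviated by 4.54, 15.4 and 7.23 millionths in restricted steers 1 to 3, against -13.4, -9.70 and -4.00 millionths in supplemented steers 1 to 3. All 3 restricted steers thus lay above all 3 supplemented ones, with a gap of 8.54 millionths. The difference was 18.1 ± 4.02 millionths (SE), or 3.47 SDs with a 95% interval from 1.42 to 5.53 (limma unadjusted p = 0.00829). MPC2 was the one gene of the list at an unadjusted p under 0.05 under every alternative tried except quantile normalization, in which its groups had equal means. After the median shift its difference was 1.98 SDs. MPC1 (mean value 8.54), the other subunit, deviated by -0.850, 3.92 and 2.31 millionths in restricted steers and by -4.14, -1.57 and 0.325 millionths in supplemented steers. Here restricted steer 1 fell among the supplemented steers, and the difference of 1.54 SDs had an interval from -0.517 to 3.59 and shrank to 0.260 SDs after the median shift.

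PC, pyruvate carboxylase, which makes oxaloacetate from pyruvate and refills the cycle, was the gene with the lowest difference of the list at -0.755 SDs (interval -2.81 to 1.30). Its deviations were -2.05, 0.242 and 0.606 millionths in restricted steers and 0.869, 0.307 and 0.0273 millionths in supplemented steers. The sign came from restricted steer 1, without which the difference was 0.0605 SDs. The 2 other probe sets of PC had higher values in restricted steers, by 1.90 and 0.490 SDs, so the probe sets of this gene disagree. Their means were 5.22 and 4.96, against 5.605 for the probe set that stands for PC.

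All 5 genes of the pyruvate dehydrogenase complex had higher values in restricted steers, as they did after the median shift, while quantile normalization gave 3 lower and 2 equal. Their median difference was 1.25 SDs, with none at an unadjusted p under 0.05. PDHX, which anchors the lipoamide dehydrogenase to the core, deviated by 4.86, 9.58 and 2.34 millionths in restricted steers, against -2.76, -14.0 and -0.000333 millionths in supplemented steers. The groups did not overlap, and the difference was 1.91 SDs (interval -0.144 to 3.96, limma unadjusted p = 0.0618), or 1.16 SDs after the median shift. PDHB, the beta subunit of the decarboxylating enzyme, deviated by 14.9, 51.9 and 7.25 millionths in restricted steers and by -79.0, 5.67 and -0.792 millionths in supplemented steers. Its groups were 1.58 millionths apart, supplemented steer 1 lay far below all other steers, and the difference was 1.32 SDs (interval -0.731 to 3.38).

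PDHA1, the alpha subunit that the kinases phosphorylate, deviated by 12.1, -0.352 and 11.3 millionths in restricted steers and by -30.8, 4.20 and 3.51 millionths in supplemented steers. Its difference of 1.03 SDs thus rested on supplemented steer 1 and shrank to 0.673 SDs without it. DLAT, the acetyltransferase that forms the core, differed by 1.25 SDs with overlap of the groups. DLD, the lipoamide dehydrogenase that this complex shares with the oxoglutarate dehydrogenase complex, deviated by -0.837, 26.1 and -20.7 millionths in restricted steers and by -30.6, -5.89 and 32.0 millionths in supplemented steers. These values spread over a similar range in both diets, and the difference was 0.107 SDs (interval -1.95 to 2.16).

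Among the regulators of the complex none had groups apart. PDK2, a kinase of muscle that inactivates the complex, deviated by 1.01, 0.140 and 0.797 millionths in restricted steers and by -2.09, 0.353 and -0.215 millionths in supplemented steers. Supplemented steer 2 lay above restricted steer 2, and the difference was 1.36 SDs (interval -0.699 to 3.41). PDK3, another kinase, differed by 0.0603 SDs and PDP1, the calcium-dependent phosphatase that reactivates the complex, by -0.269 SDs. The 95% interval of each of these 3 genes held 0. After the median shift all 3 had lower values in restricted steers, PDP1 as before it. Only 10.8% of all genes had higher values then. The median of the 3 genes was -0.573 SDs, against -0.737 SDs over all genes.

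Of the 11 measured cycle enzymes 10 had higher values in restricted steers, with a median of 0.679 SDs as deposited, and 2 stood at an unadjusted p under 0.05. After the median shift 7 were higher, where 10.8% of all genes were, and after quantile normalization 0, where 15.2% of all genes were. SUCLG1 (NCBI gene 509983, mean value 7.47), the alpha subunit of succinyl-CoA ligase, deviated by 3.01, 1.70 and 1.15 millionths in restricted steers, against -4.19, -0.749 and -0.925 millionths in supplemented steers. The groups did not overlap, and the difference was 3.91 ± 1.18 millionths (SE) or 2.56 SDs (interval 0.507 to 4.62, limma unadjusted p = 0.0248). After the median shift its difference was 0.468 SDs (limma unadjusted p = 0.575), and with an intensity trend in eBayes the unadjusted limma p was 0.254. The beta subunits that pair with SUCLG1 did not show the same pattern of steers. SUCLA2, the ATP-forming beta subunit, deviated by 3.58, -1.43 and -7.52 millionths in restricted steers and by -3.19, -2.18 and 10.8 millionths in supplemented steers, a difference of -0.531 SDs (interval -2.58 to 1.52). SUCLG2, the GTP-forming one, differed by 0.138 SDs (interval -1.92 to 2.19), with supplemented steer 3 highest and supplemented steers 1 and 2 lowest. Whether SUCLG1 differs from its partners was not tested.

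IDH3G (NCBI gene 614145, mean value 6.60), the gamma subunit of the NAD-dependent isocitrate dehydrogenase, deviated by 25.1, 21.4 and 7.69 millionths in restricted steers, against -40.1, -15.3 and 1.23 millionths in supplemented steers. The groups were 6.45 millionths apart, and the difference was 36.1 ± 12.4 millionths (SE) or 2.25 SDs (interval 0.194 to 4.30, limma unadjusted p = 0.0379). IDH3A, the catalytic subunit of the same enzyme, differed by 0.619 SDs with overlap, and its second probe set by -0.403 SDs. IDH2, the NADP-dependent mitochondrial form, deviated by 15.5, 4.28 and 62.8 millionths in restricted steers and by -112.1, -52.9 and 82.4 millionths in supplemented steers. Supplemented steers made up both ends of that range, and the difference was 0.745 SDs.

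CS, the citrate synthase whose activity is widely used as a measure of muscle mitochondria, deviated by 21.8, 55.7 and -2.79 millionths in restricted steers and by -72.3, -24.7 and 22.3 millionths in supplemented steers. Supplemented steer 3 lay above restricted steers 1 and 3, and the difference was 1.27 SDs (interval -0.788 to 3.32). MDH2, the mitochondrial malate dehydrogenase, deviated by 1.73, 5.07 and -0.314 millionths in restricted steers and by -10.2, -9.92 and 13.7 millionths in supplemented steers. The 3 restricted steers lay between the supplemented ones, and the difference was 0.438 SDs. ACO1, the cytosolic aconitase that also acts as an iron-regulatory protein, differed by 1.01 SDs, the fumarase FH by 0.679 SDs and OGDH, the decarboxylating enzyme of the oxoglutarate dehydrogenase complex, by 0.119 SDs.

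In the malate-aspartate shuttle the mitochondrial aminotransferase and the oxoglutarate carrier had groups apart. SLC25A11 (NCBI gene 282523, mean value 6.91), the carrier that exchanges malate for oxoglutarate, deviated by 34.1, 33.2 and 12.8 millionths in restricted steers, against -49.7, 0.459 and -30.9 millionths in supplemented steers. The gap between the diets was 12.4 millionths, and the difference was 53.4 ± 15.3 millionths (SE) or 2.69 SDs (interval 0.641 to 4.75, limma unadjusted p = 0.0208). GOT2 (NCBI gene 286886, mean value 9.04), the mitochondrial aspartate aminotransferase, deviated by 11.1, 21.7 and 4.24 millionths in restricted steers, against -26.1, -9.85 and -1.08 millionths in supplemented steers. Its groups were 5.32 millionths apart and its difference was 2.26 SDs (interval 0.209 to 4.32, limma unadjusted p = 0.0371). The second probe set of GOT2 (mean value 8.69) differed by 0.253 SDs with overlap of the groups. With the mean of its probe sets GOT2 differed by 0.337 SDs (limma unadjusted p = 0.683).

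GOT1, the cytosolic aminotransferase, deviated by 109.7, 89.8 and -113.7 millionths in restricted steers and by -237.4, 15.0 and 136.7 millionths in supplemented steers. It had the widest range of the list at 374 millionths, the extremes were both supplemented steers, and the difference was 0.356 SDs. SLC25A12, an aspartate-glutamate carrier, differed by -0.184 SDs (interval -2.24 to 1.87), and ME2, the mitochondrial malic enzyme that makes pyruvate from malate, by 0.442 SDs. Whether the mitochondrial and the cytosolic aminotransferase differ in their response was not tested.

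The steers of the 2 diets did not overlap in 7 of the 27 genes, or 25.9%, all with higher values in restricted steers. Over all genes the groups did not overlap in 8.74%, and 4.15% did so with higher values in restricted steers. The 7 genes are MPC2, PDHB, PDHX, IDH3G, SUCLG1, GOT2 and SLC25A11.

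**Figure D2:**
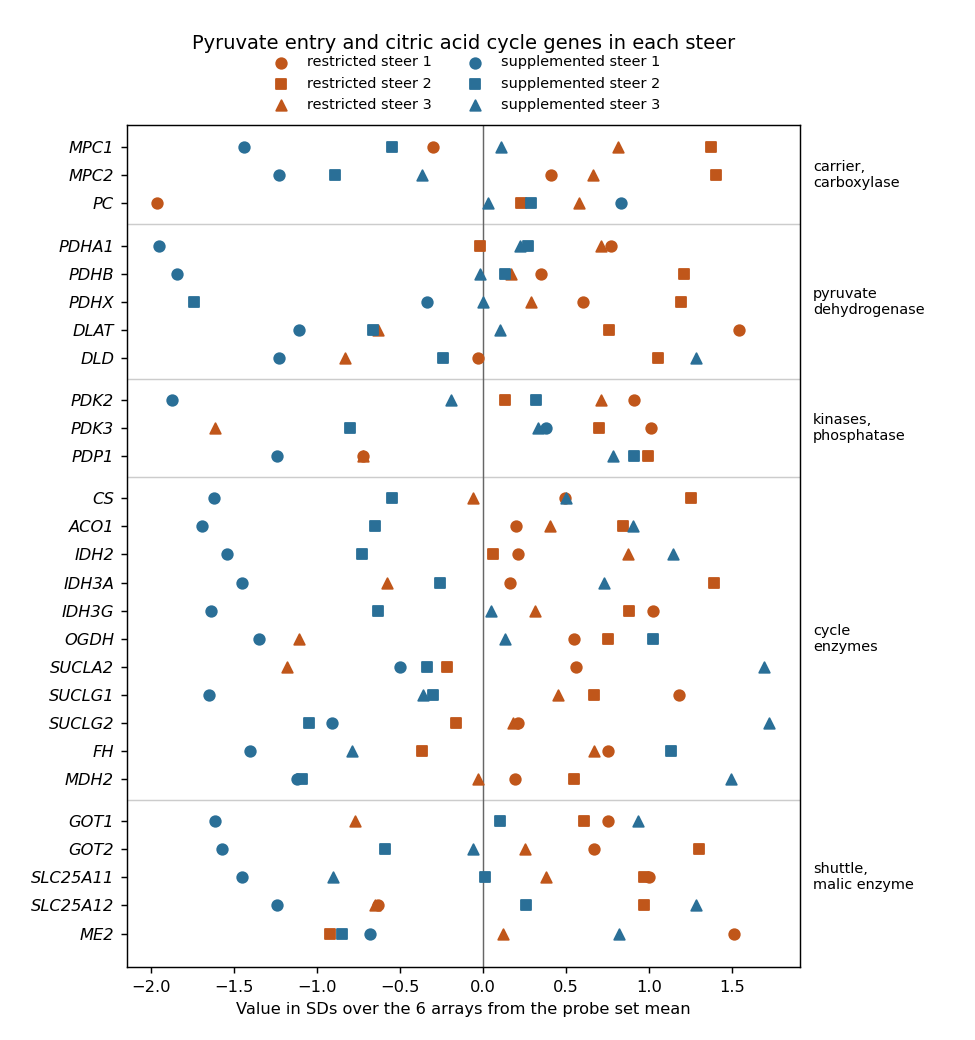
Value of each gene in each steer, in SDs over the 6 arrays from the mean of the probe set (horizontal axis), with orange symbols for restricted and blue symbols for supplemented steers. The blue circle, supplemented steer 1, is the leftmost symbol in 21 of the 27 rows.

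Supplemented steer 1 stood apart from the other steers in these genes. It had the lowest value of all 6 steers in 21 of the 27 genes, or 77.8%, while it was the lowest in 18.7% of all genes and in 21.2% of the genes above the median level. Restricted steers 1 and 2 and supplemented steer 3 each had the highest value in 8 genes, and restricted steer 3 in 0. Averaged over the 27 genes, in SDs over the 6 arrays, the values were 0.422, 0.651 and -0.022 in restricted steers 1 to 3, against -1.20, -0.276 and 0.427 in supplemented steers 1 to 3. Supplemented steer 3 thus lay above restricted steers 1 and 3, and the supplemented steers spread more widely, with an SD of 0.817 against 0.342 in the restricted steers.

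Without supplemented steer 1 the number of genes with a higher value in restricted steers was 19 of 27, where 48% of all genes had one, and the median difference was 0.217 SDs, against -0.0457 SDs over all genes. At an unadjusted limma p under 0.05 there were then 3 genes, MPC2 (3.08 SDs), SUCLG1 (3.57 SDs) and SLC25A11 (2.60 SDs), where 5.18% of all genes passed. IDH3G (2.49 SDs) and GOT2 (2.22 SDs) missed that threshold. DLD, OGDH, SUCLG2 and GOT1 had lower values in restricted steers in that case, and IDH2, IDH3A, FH and MDH2 differed by 0.210 SDs or less. Without supplemented steer 3, in contrast, 26 of the 27 genes had higher values in restricted steers, where 51.9% of all genes did, the median difference was 1.55 SDs, and 9 genes stood at an unadjusted p under 0.05, where 5.75% of all genes did. The differences thus depended on which supplemented steers were in the comparison. MPC2 and SUCLG1 were at that threshold in both cases, but SUCLG1 missed it without restricted steer 1 (2.12 SDs) or restricted steer 2 (2.30 SDs), with age as a covariate (2.49 SDs) and with replicate numbers as a block (1.94 SDs), besides the median shift and the intensity trend. After the median shift the genes at that threshold were MPC2, IDH3G and SLC25A11, where 1.4% of all genes passed.

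**Figure D3:**
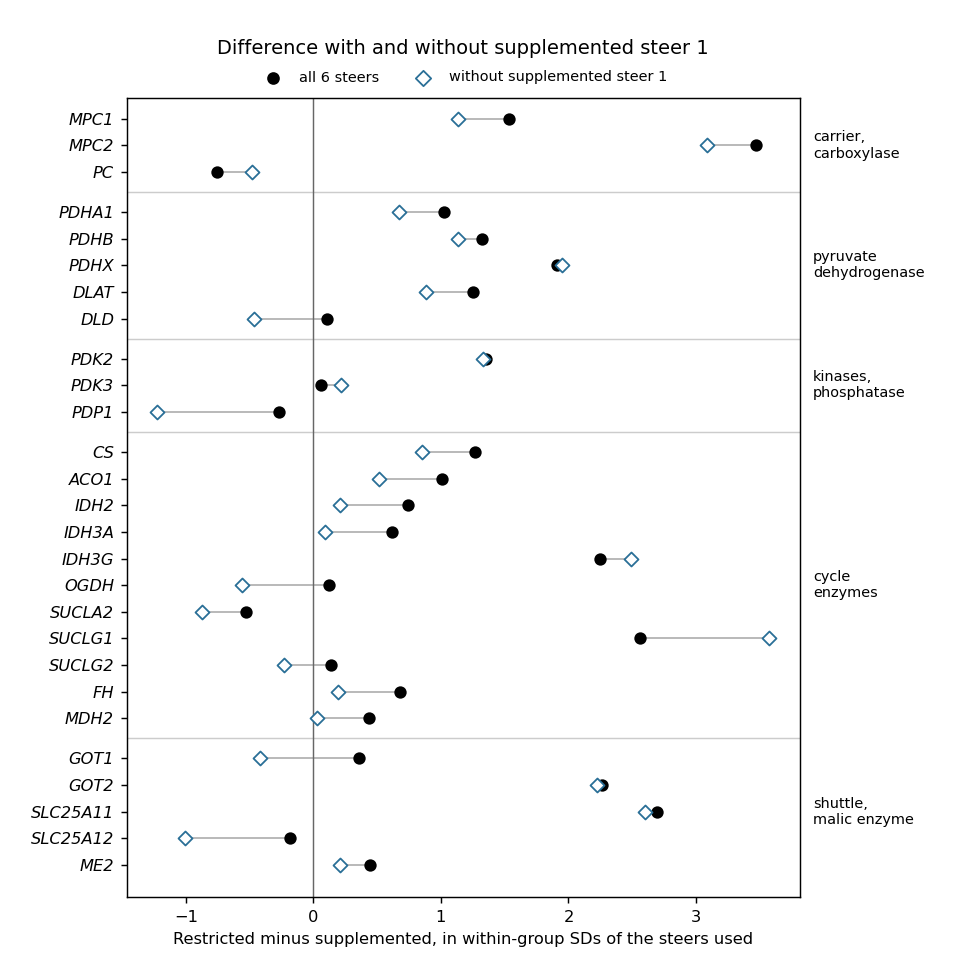
Difference of each gene in within-group SDs with all 6 steers (black circles) and without supplemented steer 1 (open diamonds), each in SDs of the steers used. MPC2 stays near 3 SDs, SUCLG1 moves to 3.57 SDs, and most cycle enzymes move towards or past 0.

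The order of the steers by group mean was the same for genes of mitochondrial import, membranes and genome maintenance as for the pathway genes. It was different for the cell and fibre marker groups. In bulk muscle, fewer cells of a type and less RNA per cell cannot be told apart. Genes of mitochondrial import, membranes and genome maintenance had higher values in restricted steers in 13 of 15, with a median of 0.466 SDs as deposited. After the median shift 5 of 15 did, where 10.8% of all genes did. The mean of this group ranged from -0.034 to 0.695 in restricted steers and from -0.953 to 0.475 in supplemented steers, with supplemented steer 1 again lowest. PHB1, an inner membrane scaffold protein, differed by 2.55 SDs and TOMM70, an import receptor, by 2.81 SDs, both without overlap, though TOMM70 turned to lower with the median shift. Supplemented steer 1 also had the highest mean of the fibroblast markers at 1.62, and of the macrophage and leukocyte markers at 0.953. As groups the fibroblast markers (2 of 6 higher) and the macrophage and leukocyte markers (3 of 7 higher) had medians of -0.167 and -0.415 SDs. Of the macrophage and leukocyte markers 1 was higher after the median shift, where 10.8% of all genes were. With control probe sets in the median 5 were, where 81.7% of all genes were.

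All 10 measured adipocyte markers had higher values in restricted steers, 8 of them after the median shift and 6 after quantile normalization, with a median of 0.836 SDs as deposited and means from -0.240 to 0.885 in restricted and from -1.01 to 0.365 in supplemented steers, where supplemented steer 1 was the highest of its diet. CFD, the adipocyte protease adipsin, differed by 6.35 SDs without overlap (limma unadjusted p = 0.000717, adjusted p rounding to 1). All 7 measured fast fibre genes had lower values, with means from -0.769 to 0.006 in restricted and from 0.196 to 0.574 in supplemented steers. The median shift lowers every difference and so could not turn these genes. When control probe sets entered the median 3 were higher, where 81.7% of all genes were, and all were equal after quantile normalization. MYH1, the myosin of fast glycolytic fibres, differed by -3.46 SDs. CFD, MYH1, PHB1 and TOMM70 were chosen after their values were seen. Of the 9 skeletal muscle markers, of which MYH1 is also one, 7 had lower values in restricted steers, 4 with control probe sets in the median and 1 after quantile normalization, with a median of -0.497 SDs. Their mean was -0.200, -0.140 and -0.479 in restricted steers, all below the 0.395, -0.008 and 0.432 of supplemented steers. Of 8 slow fibre genes 5 had higher values, 4 after the median shift, with a median of 0.101 SDs, and restricted steer 1 stood highest at 1.21. Of the endothelial markers 5 of 7 and of the red blood cell markers 4 of 5 had higher values, with medians of 0.704 and 0.536 SDs. After the median shift 3 of 7 and 0 of 5 did, where 10.8% of all genes did. None of these markers passed the adjusted threshold, and the part of these cells, fibres and mitochondria in the differences of the pathway genes was not tested.

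**Figure D4:**
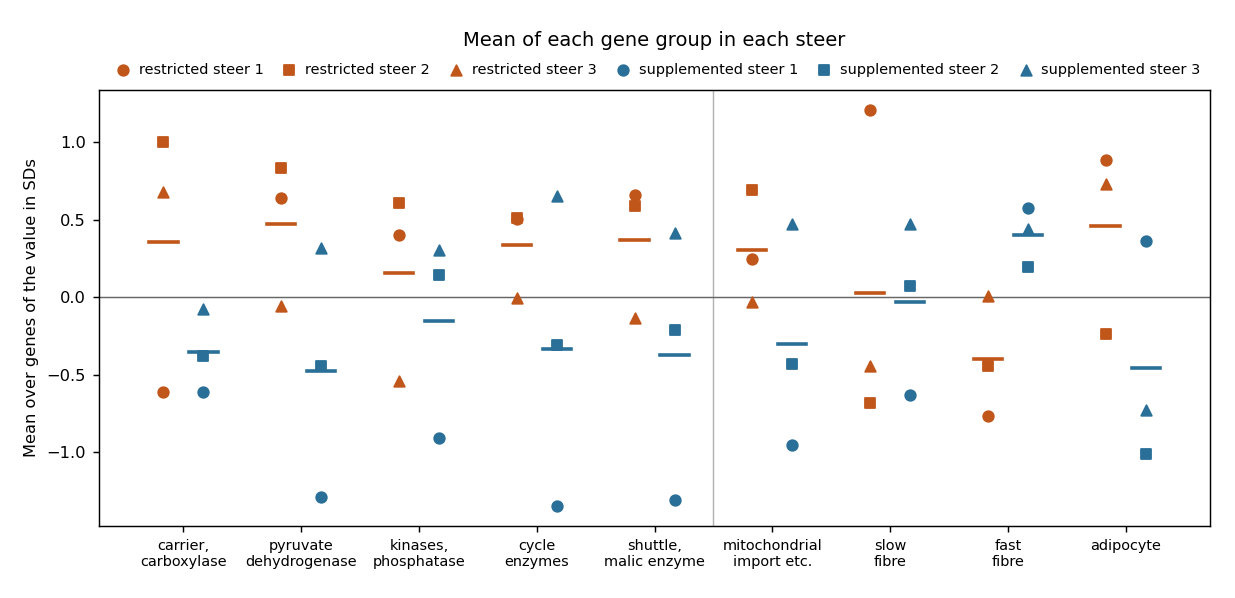
Mean over the genes of each group of the value in SDs over the 6 arrays (vertical axis) in each steer, restricted left and supplemented right in each pair, with lines at the mean of each diet. Supplemented steer 1 lies near -1.3 in pyruvate dehydrogenase, cycle and shuttle genes and lowest also in the mitochondrial import group, but not in the fast fibre or adipocyte groups.

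Further genes around pyruvate and the cycle were mixed in direction. Of 35 such genes 29 were measured, 18 with higher and 11 with lower values in restricted steers. The median was 0.403 SDs, and 0 genes were at a limma adjusted p or an unadjusted p under 0.05. After the median shift 12 were higher and 17 lower, where 10.8% of all genes were higher. GPT, an alanine aminotransferase that makes pyruvate, differed by 1.84 SDs (limma unadjusted p = 0.0687) and turned to lower with the median shift. PCK1, the cytosolic enzyme that makes phosphoenolpyruvate from oxaloacetate and serves glycerol synthesis in fat cells, deviated by 343.8, -4.20 and 21.9 millionths in restricted steers, against -115.8, -113.5 and -132.2 millionths in supplemented steers. It was the 1 gene of this list without overlap, and its difference of 1.76 SDs (limma unadjusted p = 0.0780) came with restricted steer 1 far above the other restricted steers. LDHB, the lactate dehydrogenase subunit that prevails in oxidative tissue, differed by 1.22 SDs.

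On the lower side, SLC16A3, a lactate exporter of glycolytic muscle, differed by -1.38 SDs (limma unadjusted p = 0.140), LDHD by -0.798 SDs and ME3, a mitochondrial malic enzyme, by -0.708 SDs. SDHA, the flavoprotein of succinate dehydrogenase, deviated by 8.84, 2.56 and 5.99 millionths in restricted steers and by -36.7, -20.7 and 40.1 millionths in supplemented steers, a difference of 0.403 SDs. The restricted steers lay between the supplemented ones, as they did for MDH2. PDK4, the pyruvate dehydrogenase kinase induced by fasting, differed by 0.685 SDs (limma unadjusted p = 0.420).

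**Figure D5:**
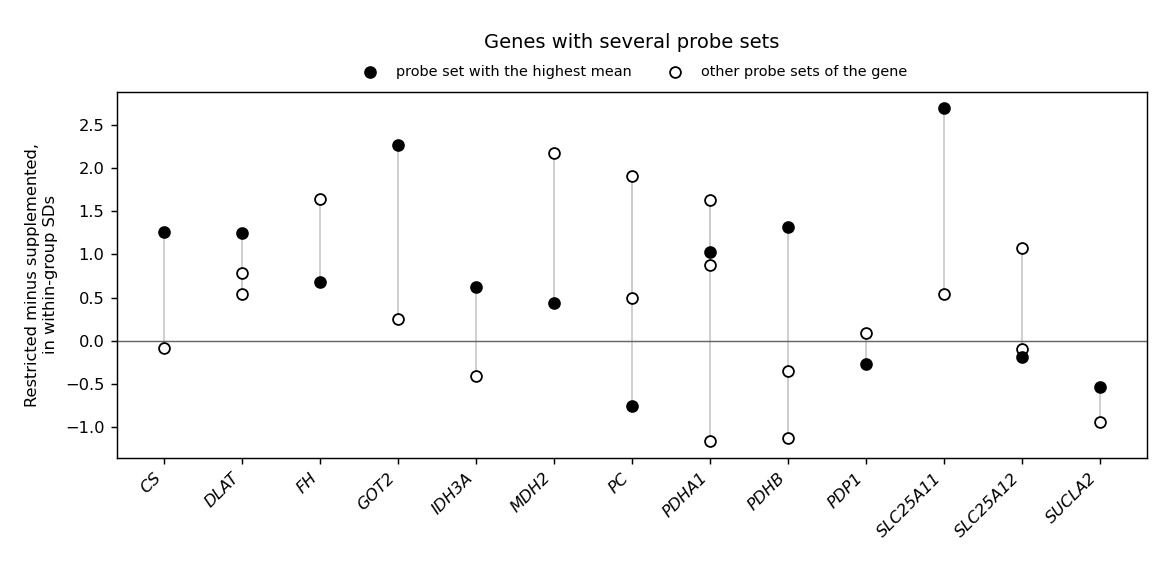
Difference between the diets, in within-group SDs, for every probe set of the 13 genes with several (filled, the probe set with the highest mean; open, the others). Probe sets of CS, IDH3A, PC, PDHA1, PDHB, PDP1 and SLC25A12 lie on both sides of 0.

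Several probe sets were present for 13 of the 27 genes, and in 6 of these all probe sets had the same direction, namely DLAT, FH, GOT2, MDH2, SLC25A11 and SUCLA2. Over all 46 probe sets 35 had higher values in restricted steers as deposited, against 48.3% of all tested probe sets. The second probe set of SLC25A11 differed by 0.540 SDs, and the other probe sets of PDHB by -0.351 and -1.12 SDs. Those of PDHB had means of 4.89 and 4.96, below the median level, and differences of -0.059 and -0.281 millionths. The probe set of PDHA1 with a lower value in restricted steers had a mean of 4.95. MPC2, SUCLG1, IDH3G and PDHX had 1 probe set each, so for them no second measurement on the array was at hand.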

How the data were processed

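RNA of 6 steers, 3 on each diet, was hybridised to 1 array per steer. Per the labels' protocols, 100 ng of total RNA was amplified and labelled with biotin for an Affymetrix 3 prime array. The authors deposited 1 table of 24128 probe sets, taken here as log2 values from their range of 4.81 to 12.8. The log base and the background correction, normalization and summarization steps: not given in the sources used here. Values were used as deposited and were multiplied by 1e+09 before fitting. After 112 control probe sets were left out, limma 3.58.1 in R 4.3.3 (lmFit, eBayes without trend, prior of 0.483 and residual 4 degrees of freedom) compared restricted with supplemented steers, with Benjamini-Hochberg adjustment over 24016 probe sets. The fit was tested on simulated data. Arrays give no counts, and their number limits the precision.

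Symbols came from a platform annotation table: of the tested probe sets 13292 have 1 gene and 10638 none, and 86 annotated probe sets have several. Of the 13292, 13263 matched by gene ID to a gene of the ARS-UCD2.0 annotation, including all 27 pathway genes, and 0 symbols changed. No build is named for the array, so no coordinates are given. Pathway genes and lists were chosen with earlier results of these data known. Every measured pathway gene was named. By rule, values of all steers were given for genes at an unadjusted p under 0.05, without overlap, or with the largest difference of their role; those of other genes were added afterwards. From the list of further genes up to 3 per direction with the smallest p were named, plus SDHA, PDK4 and LDHB.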

Additional observations from a re-analysis of the deposited data

How the results depend on the processing

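No pathway gene passed the adjusted threshold under any alternative. Array medians over the tested probe sets differed by 8.88 millionths of a log2 unit, more than the range of 85.9% of these probe sets. The range of 8 of the 27 pathway genes was also narrower, so scaling matters by construction. With the 112 control probe sets included, array medians differed by 1.75 millionths. With arrays shifted to the same median, 10.8% of all genes and 18 of 27 pathway genes had higher values in restricted steers. At an unadjusted p under 0.05 there were 3 pathway genes, where 1.4% of all genes passed. Then 4 pathway genes had no overlap, and the share of all genes without overlap is not given for this setting. The regulators' median was -0.573 SDs, and PDK2 (-0.283), PDK3 (-0.744), ACO1 (-0.205), OGDH (-0.639) and SUCLG2 (-0.119) turned. With control probe sets included in the median, an alternative chosen after seeing the data, 81.7% of all genes and 23 of 27 pathway genes had higher values. Quantile normalization left 21 of 27 pathway genes with equal group means, 1 higher and 5 lower. It called 35 probe sets and left 0 pathway genes at an unadjusted p under 0.05, where 0.208% of all genes were. A difference in SDs then exists only for genes whose values still differed between arrays. Over these genes alone the medians were -0.697 SDs for the list, -0.816 in the dehydrogenase complex and -0.577 in the cycle. These medians leave out the genes equal on all arrays, so they do not describe the whole list. PC was then at 0.577 SDs, PDHA1, DLAT and IDH3A at -0.816 and DLD at -1.63. With the mean of all probe sets of a gene PC was at 0.559 SDs and GOT2 at 0.337 SDs (limma unadjusted p = 0.683). In that setting 4 pathway genes were at an unadjusted p under 0.05, GOT2 not among them, where 4.03% of all genes were.

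With age as a covariate 0 probe sets were called and 1 pathway gene was at an unadjusted p under 0.05; PDK3 (-1.05), PDP1 (0.0870), OGDH (-0.00499) and SLC25A12 (0.232) turned. Replicate numbers did not pair the steers (correlations of same-numbered deviations 0.0374, 0.0151 and 0.0152). With them as a replicate block 0 probe sets were called and 3 pathway genes were at an unadjusted p under 0.05, where 5.85% of all genes were. The filters on dim probe sets and the intensity trend leave each difference as it is, so they could turn no gene.

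When single steers were left out, 1 to 2 probe sets were called, and over the pathway genes 0 passed the adjusted threshold, 19 to 26 were higher, 1 to 9 were at an unadjusted p under 0.05, 7 to 14 had no overlap, and the median was 0.217 to 1.55 SDs. The count at an unadjusted p was 2 without restricted steer 1, 1 without restricted steer 2, 3 without supplemented steer 1 and 9 without supplemented steer 3. Overlap was absent in 14 without supplemented steer 3. Groups with fewer steers come apart more easily, and the share of all genes without overlap is not given for these cases. The counts without overlap are therefore not comparable with the count from all 6 steers. Ranges that cross 0 were -0.222 to 1.11 for the regulators, -1.31 to 0.0605 for PC, -0.469 to 0.910 for DLD, -0.386 to 1.59 for PDK3, -1.22 to 0.0730 for PDP1, -0.561 to 0.732 for OGDH, -0.920 to 0.196 for SUCLA2, -0.305 to 5.86 for SUCLG2, -0.420 to 0.969 for GOT1, -1.01 to 0.395 for SLC25A12 and -0.183 to 1.12 for ME2. The cause was not tested.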

Other observations

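PDK4, the kinase that closes pyruvate dehydrogenase during fasting, had one of the widest spreads between steers on the array. Its deposited log2 values ranged over 0.0158, the rank of 25 among 24016 tested probe sets, of which 34 ranged over more than 0.01. It deviated by -3064, 3422 and 5721 millionths of a log2 unit in restricted steers 1 to 3 and by -10030, 3091 and 864.6 millionths in supplemented steers 1 to 3. Both diets held low and high steers, and supplemented steer 1 was the lowest here too. The lipogenic enzyme ACLY, which splits exported citrate, ranked 80 by spread, with deviations of -345.0, -1602 and 1621 millionths in restricted steers and 563.1, -1719 and 1482 millionths in supplemented steers. Its steer 2 was the lowest within both diets, and the difference was -0.133 SDs (limma unadjusted p = 0.871). Because the step behind the narrow deposited spread is not stated, the order of spreads is a description of this table.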
